A study of Mus musculus with 9 samples.

Results

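Colonic mucosa of carcinogen-treated mice that stayed free of tumors on a high calcium diet was compared here with mucosa of mice that had tumors on the same diet. The members are the 6 arrays of these groups, 3 titled as high calcium without tumors and 3 as high calcium with tumors, of 9 arrays in the series, and they were chosen by their titles alone. All were ICR mice, an outbred stock, fed 3% calcium and injected under the skin with 1,2-dimethylhydrazine (DMH), a colon carcinogen of rodents, at 20 mg/kg weekly for 20 weeks. The other 3 arrays, called DMH here, came from ICR mice given the same injections on a diet with 1.24% calcium. Their tumor status is labelled only as control. Thus every group had received the carcinogen, and there was no group without it. All RNA is labelled as from normal colonic mucosa, so the tumors themselves were not the stated source. No age of the mice is stated, and no label states that a group's arrays are separate mice, so p-values here reflect array-to-array spread alone, which may be technical.

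The colon is lined by a single layer of epithelium folded into crypts. Stem cells at the crypt base divide under the control of Wnt signals, and their daughters become absorptive colonocytes, mucus-secreting goblet cells or hormone-secreting enteroendocrine cells as they move up. Most colon tumors begin with Wnt signalling that is switched on without its ligand, which raises the targets and the feedback inhibitors of the pathway. Around the crypts lie fibroblasts, immune cells, vessels and nerves, and beneath them muscle and an outer mesothelium, so that RNA of a mucosal sample is a mixture. In such a mixture fewer cells of a type and less RNA per cell cannot be told apart.

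Expression is given as the log2 signal of an array minus the 75th percentile of that array, so that 0 is a fairly bright gene and 1 unit is a 2-fold step. Between 61.1 and 73.8% of 41174 probes were well above background on an array, and 21094 features were tested, 14192 of them with a gene symbol. Differences are the group without tumors minus the group with tumors, ± the standard error (SE) of a limma fit over all 9 arrays, with n = 3 arrays per group. Epithelial RNA was read in both groups: all 26 measured markers of simple epithelium were well above background on all 6 arrays. So were all 21 measured smooth muscle genes, so this does not show how much of a sample was epithelium. Epcam, an adhesion protein of all epithelia, read 6.33, 6.18 and 6.30 without tumors and 6.31, 6.29 and 6.21 with tumors, which overlap (adjusted p = 0.971).

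The 2 high calcium groups shared no slide. On slide 1 were the 3 tumor-free arrays next to DMH replicate 1. On slide 2 were DMH replicates 2 and 3 next to replicates 1 and 2 with tumors, and replicate 3 with tumors was alone on slide 3. A second fit of each difference therefore added the slide as a block. This takes the group without tumors against the DMH array of slide 1 and the group with tumors against the DMH arrays of slide 2, and subtracts the second from the first. The link on slide 1 is a single DMH array, and replicate 3 with tumors does not enter. The slide moved with much of the spread between arrays: it accounted for 92.1% of the first principal component, which held 50.3% of the variance, and the groups for 64.8%. For the second component, with 21.0% of the variance, the groups accounted for 93.2% and the slide for 45.3%. Slide and group overlap in this layout, so these shares are not separate parts. Replicate 3 with tumors stood apart from its group. Its correlation over features was 0.967 and 0.967 with the others of its group and 0.975 with DMH replicate 1, and 2887 and 2935 features were at least 2-fold apart from those others. Arrays of 1 group on 1 slide correlated at 0.994 to 0.997, with 120 to 451 features that far apart. A gene is said here to have passed, risen or fallen where the adjusted p was under 0.05 both without and with this block and the sign was the same.

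Between the groups 2205 features were higher without tumors and 2807 lower, 10.5% and 13.3% of those tested. Without the block alone 10028 passed (47.5%), of which 49.98% also passed with it, and with the block alone 6320 passed (30%). Of the features that passed, 534 were higher and 501 lower by at least 2-fold (2.53% and 2.38%), counted on the difference without the block. The split, 44.0% higher, moved with the processing. Under normexp background correction, which adds an offset and so shrinks differences of dim probes, 544 features passed, 56.4% of them higher. Without replicate 3 with tumors 5585 passed, and 12265 without the block alone, 53.3% of the latter higher against 43.3%. Leaving out other arrays moved the count of 5012 to 2608 (replicate 2 with tumors), 3058 (replicate 1 with tumors) or 3196 (DMH replicate 3). With the background share this high, a list of genes is read below against 10.5% and 13.3%, not against 0.

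**Figure D1:**
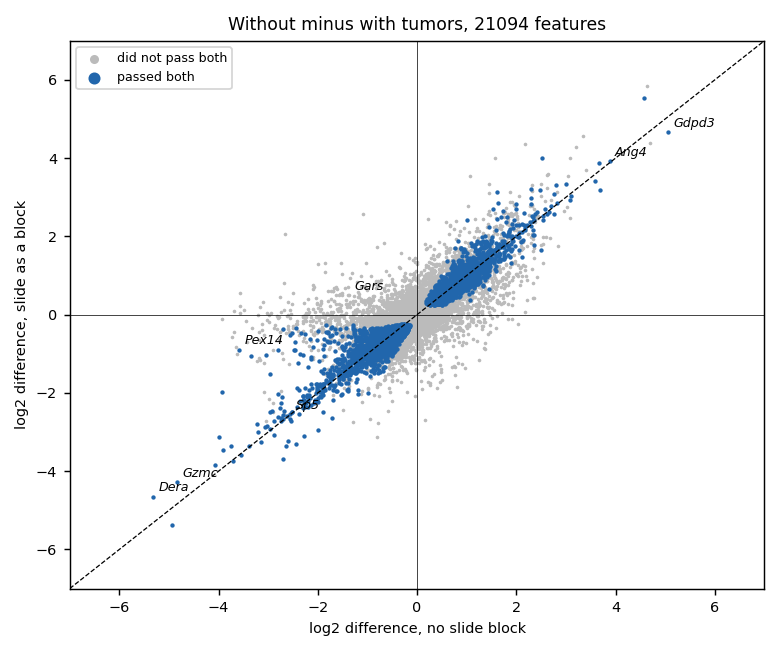
Each point is 1 of 21094 features, with the log2 difference (without minus with tumors) without the slide block on the horizontal axis and with the slide as a block on the vertical axis, and the dashed line marks equal values. Blue points passed in both fits with the same sign; Gdpd3, Ang4, Sp5, Dera and Gzmc lie near the line, while Pex14 lies at -3.58 without and -0.90 with the block and Gars changes sign.

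Several secreted defence proteins of the crypt were among the largest rises, though Gdpd3, described below, rose more. Ang4, an antimicrobial ribonuclease of secretory cells, read 4.60, 4.43 and 4.38 without tumors, 0.51, 0.51 and 0.75 with tumors, and 4.26, 4.16 and 4.30 in DMH. The arrays with tumors were low, and those of the other groups lay close together. The difference of 3.88 ± 0.09 was 14.7-fold (adjusted p = 2.16e-06, and 3.93 with the block). Itln1, a lectin that binds microbial sugars, showed the same layout, with 5.24, 5.04 and 5.07 without tumors, 2.50, 2.47 and 2.52 with tumors and 4.99, 4.89 and 4.97 in DMH. It was 6.14-fold higher without tumors (2.62 ± 0.06, adjusted p = 2.16e-06). Within slide 1 neither Ang4 (0.21, adjusted p = 0.19) nor Itln1 (0.13, adjusted p = 0.34) passed against DMH, while within slide 2 they fell by 3.72 and 2.44 with tumors.

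Retnlb, the goblet cell protein RELM-beta, read 7.54, 7.35 and 7.38 without tumors and 2.77, 4.60 and 3.83 with tumors, and its DMH arrays lay between them at 5.66, 5.30 and 4.92. The arrays with tumors were spread over almost 2 units, and none reached those without. The difference was 3.69 ± 0.42 (adjusted p = 0.000447, 0.0383 with the block). Mptx1, a pentraxin of the intestinal epithelium, read 7.63, 7.41 and 7.50 without tumors against 3.98, 3.99 and 3.79 with tumors, a 12-fold rise (3.59 ± 0.08). Ang2, a close relative of Ang4, rose by 2.52 ± 0.36 without the block and by 4.01 with it. Its DMH arrays differed between slides, at 0.27 on slide 1 and 1.56 and 1.71 on slide 2. Ang4 and Ang2 belong to a family of similar genes, and probes may not tell them fully apart.

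Of 21 measured antimicrobial and lectin genes 8 rose and 4 fell, or 38.1% and 19.0%. Lcn2, which withholds iron from bacteria, went the other way: it read -5.05, -4.67 and -4.84 without tumors and -2.46, -2.60 and -2.74 with tumors (-2.25 ± 0.16, adjusted p = 5.71e-05). Lgals2, a galectin, fell by 1.35. Under normexp correction 2 members of this list rose and 1 fell, and Lcn2 was at -0.79.

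**Figure D2:**
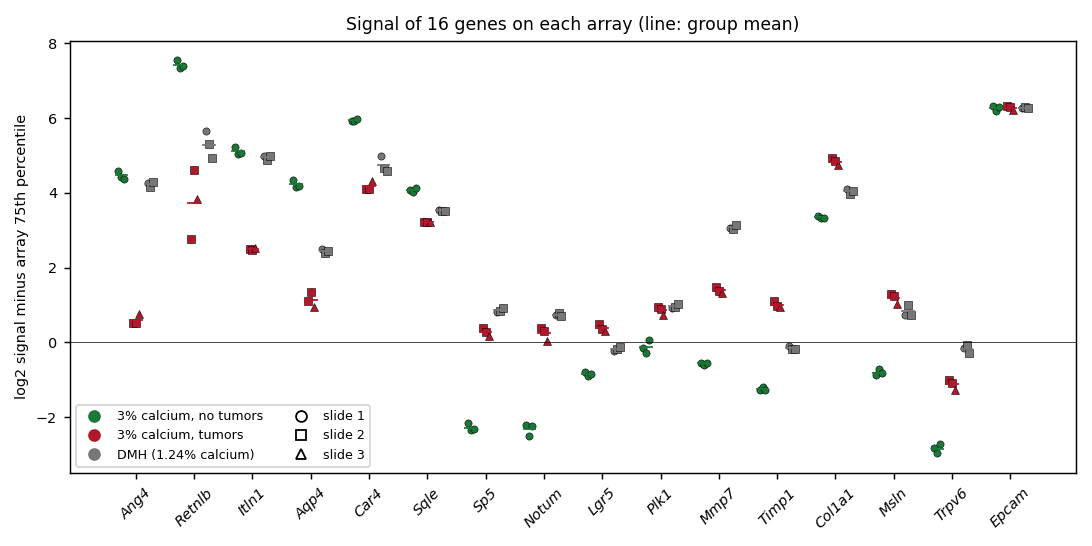
Signal of 16 genes on each array, as log2 minus the 75th percentile of the array, with the group in colour, the slide as the marker shape and a line at each group mean. The 3 arrays without tumors lie above those with tumors for Ang4, Retnlb, Itln1, Aqp4, Car4 and Sqle and below them for Sp5 to Trpv6, while Epcam overlaps.

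Among genes of the differentiated epithelium more rose than fell in the goblet and absorptive lists, though under 50% of either list rose. Of 19 goblet cell and mucus genes 8 rose and 2 fell (42.1% and 10.5%), with a median difference of 0.49 and 0.37 with the block. Atoh1, the factor that commits cells to the secretory lineage, read 0.10, -0.05 and -0.08 without tumors and -1.31, -1.49 and -1.39 with tumors (1.39 ± 0.09, adjusted p = 4.41e-05). Creb3l1, a transcription factor of secretory cells, rose by 1.31 and Spdef, which drives goblet cell maturation, by 0.92. The 2 that fell were Clca3a1 (-0.55) and Sytl2 (-0.50), named after their values were seen. Muc2, the main mucin, had no probe named here. The count of rises was 5 without replicate 1 or 3 of the group without tumors or DMH replicate 3, and 3 under normexp correction. In the enteroendocrine list of 23 genes 4 rose and 2 fell, or 17.4% and 8.70% (1 and 1 under normexp correction), with a median of -0.0021 (-0.12 with the block). Gcg, which encodes the glucagon-like peptides, rose by 1.32 ± 0.08 and the hormone gene Insl5 by 1.20 ± 0.09, while Isl1, a transcription factor of endocrine cells, was 3.85-fold lower without tumors.

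In the absorptive colonocyte list, 11 of 26 members rose and 2 fell, or 42.3% and 7.69%, with a median of 0.54 (0.46 with the block). Aqp4, a water channel, read 4.34, 4.16 and 4.18 without tumors, 1.11, 1.35 and 0.96 with tumors, and 2.50, 2.40 and 2.45 in DMH. The DMH arrays lay between the high calcium groups, and the rise was 8.49-fold (3.09 ± 0.10, adjusted p = 4.73e-06). Car4, a membrane carbonic anhydrase, was 3.39-fold higher (1.76 ± 0.11), Atp12a, the colonic proton/potassium pump, 3.54-fold (1.83 ± 0.08), and Slc26a3, the chloride/bicarbonate exchanger, 1.81-fold (0.86 ± 0.11). Slc9a3, a sodium/proton exchanger, rose by 2.27 but was well above background on only 1 array with tumors, and the call ended under normexp correction (0.39, adjusted p = 0.11). The members that fell were subunits of the epithelial sodium channel. Scnn1g, the gamma subunit, read -3.68, -3.46 and -2.93 without tumors and -0.67, -0.81 and -0.96 with tumors, a 5.82-fold fall, and Scnn1b, the beta subunit, named after its values were seen, fell 2.01-fold. In DMH Scnn1g stood at -3.62, -3.61 and -3.81, so here the arrays with tumors were the high ones. Aqp8, the main water channel of colonocytes, did not pass with the block (0.85 without, 0.57 with, adjusted p = 0.0596), and Krt20, a keratin of surface cells, did not pass (0.24, adjusted p = 0.162). Krt20 was under the threshold in the fit without the block when replicate 3 with tumors was left out (0.36, adjusted p = 0.034), and not with the block (0.096, adjusted p = 0.648). Under normexp correction 5 members of the list rose.

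Cdx1, a factor that specifies intestinal epithelium, read 1.85, 1.72 and 1.75 without tumors and 0.48, 0.42 and 0.38 with tumors (1.35 ± 0.07), and Cdx2, its paralog, rose by 0.82 ± 0.08. Both high calcium groups were below DMH for Cdx2, by 0.75 within slide 1 and by 1.63 within slide 2. Among 26 markers of simple epithelium 6 rose and 2 fell, and the median was 0.09. Cdh1, E-cadherin, was among those that fell (-0.88, adjusted p = 0.0014 without the block). The mean level of that list was 4.14 to 4.22 without tumors and 4.02 on each array with tumors.

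Wnt feedback inhibitors and targets were lower without tumors. Of 24 measured genes of this list 12 fell and 0 rose, 50% against 13.3% of all features (0 rose in the combined call, and 1 without the block), with a median of -0.55 and -0.52 with the block. Sp5, a transcription factor that Wnt signals induce directly, read -2.16, -2.35 and -2.33 without tumors, 0.38, 0.28 and 0.16 with tumors, and 0.82, 0.85 and 0.91 in DMH. The arrays without tumors were far the lowest, and the fall was 5.88-fold (-2.56 ± 0.08, adjusted p = 3.12e-06). Those with tumors were also below DMH for Sp5 within slide 2 (-0.55, adjusted p = 0.0045). In the list median both groups were below DMH, at -0.60 within slide 1 and -0.24 within slide 2. Notum, a secreted enzyme that inactivates Wnt proteins, read -2.22, -2.49 and -2.24 against 0.39, 0.31 and 0.03, a 5.9-fold fall (-2.56 ± 0.11). Nkd1, an inhibitor inside the cell, fell by 1.90 ± 0.05 and Dkk2, a secreted modulator of the Wnt receptor, by 1.84 ± 0.09. Lgr5, the marker of crypt stem cells, read -0.78, -0.90 and -0.85 without tumors and 0.48, 0.37 and 0.31 with tumors, with DMH between them at -0.23, -0.17 and -0.12 (-1.23 ± 0.06, adjusted p = 2.03e-05). Lgr5 was thus below DMH within slide 1 (-0.61, adjusted p = 0.004) and above it within slide 2 (0.57, adjusted p = 0.0023). Mex3a, an RNA-binding protein of crypt progenitors, fell by 2.10 without the block but by 0.83 with it, and its call ended under normexp correction (adjusted p = 0.051). Myc, a growth regulator, did not pass with the block (-0.22 without, -0.23 with, adjusted p = 0.083), and its probes disagreed in sign. Under normexp correction 5 members of the list fell, with Sp5 at -1.91 and Notum at -1.87. Ccnd1 had no probe named here, and no probe of Axin2 passed the background filter.

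Promoters of Wnt list genes are shown because members of the list fell together, with 250 bases before the RefSeq start on GRCm38.p6. A search was made for CTTTGAT, letters bound by the TCF factors of the Wnt pathway, on both strands, and matches are in capitals. Sp5 and Tnfrsf19, a receptor of the tumor necrosis factor family found on crypt stem cells, held a match, and Nkd1 is shown as a gene that fell without one. Tnfrsf19 and Nkd1 were picked for display after their values and matches were known.
Sp5, chr2:70474673-70474922, plus strand: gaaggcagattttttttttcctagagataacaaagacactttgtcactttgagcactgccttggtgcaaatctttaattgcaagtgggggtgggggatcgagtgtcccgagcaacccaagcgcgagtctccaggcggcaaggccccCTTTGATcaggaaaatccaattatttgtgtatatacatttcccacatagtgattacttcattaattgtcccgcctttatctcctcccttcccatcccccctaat
Tnfrsf19, chr14:61037988-61038237, minus strand: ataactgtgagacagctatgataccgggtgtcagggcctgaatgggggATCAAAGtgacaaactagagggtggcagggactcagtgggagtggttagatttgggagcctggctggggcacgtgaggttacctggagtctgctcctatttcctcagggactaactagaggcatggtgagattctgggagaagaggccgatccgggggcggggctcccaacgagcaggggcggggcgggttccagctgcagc
Nkd1, chr8:88527383-88527632, plus strand: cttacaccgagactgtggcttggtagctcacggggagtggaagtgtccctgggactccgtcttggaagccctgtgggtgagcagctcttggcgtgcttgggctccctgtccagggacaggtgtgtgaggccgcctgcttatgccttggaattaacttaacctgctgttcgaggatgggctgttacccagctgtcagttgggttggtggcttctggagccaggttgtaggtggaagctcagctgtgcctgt
The match lay at position -104 from the start in Sp5 and, on the opposite strand, at -202 in Tnfrsf19. Tnfrsf19 had 2 promoters, of which the 1 with a match is shown. Of 16 measured members of the list with a promoter in the table, 2 held it, both among the 8 that fell, against 1005 of 27025 genes (3.72%). Tnfrsf19 fell by 1.17 ± 0.05. The only other motif searched was a sterol response element, TCACNCCAC, in the cholesterol synthesis genes described below. It was found in 1 of 16 measured members, Hmgcs1, which did not pass, and in 0 of the 9 that rose, against 331 of 27025 genes (1.23%). Both motifs were picked after it was known which lists had moved, and a match is a stretch of letters, not a shown binding site.

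Genes of mitosis fell while genes of DNA replication did not. Of 27 mitosis genes 14 fell and 0 rose, or 51.9%, also 0 without the block, with a median of -0.54 (-0.61 with the block). Plk1, a kinase that drives entry into mitosis, read -0.16, -0.28 and 0.05 without tumors, 0.96, 0.88 and 0.73 with tumors and 0.93, 0.94 and 1.04 in DMH (-0.98 ± 0.10, adjusted p = 0.000239). For Plk1 the arrays with tumors did not pass against DMH within slide 2 (-0.07, adjusted p = 0.65). In the list median, however, both groups were below DMH, at -0.94 within slide 1 and -0.36 within slide 2. Birc5, the apoptosis inhibitor survivin, fell by 0.87, Aurka, a spindle kinase, by 0.76 and Mki67, the proliferation marker, by 0.46. Among 29 genes of DNA replication and S phase 5 rose and 0 fell, though 3 fell without the block. Ccne2, a cyclin of entry into S phase, rose by 0.87 ± 0.06, Gins2, of the replicative helicase, by 0.77 ± 0.08, and Pcna, the sliding clamp, by 0.43 ± 0.05. These counts were among the less stable. Falls of mitosis genes numbered 7 without replicate 1 or without replicate 2 with tumors, 9 without DMH replicate 3 and 2 under normexp correction. Rises of replication genes numbered 3 without replicate 1 or 3 of the group without tumors, replicate 2 with tumors or DMH replicate 3, 9 without replicate 2 of the group without tumors, and 1 under normexp correction.

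Genes known to be raised in colorectal tumors of mice were lower without tumors in 13 of 26 cases and higher in 2 (50% and 7.69%), with a median of -0.49 (-0.54 with the block). Mmp7, a metalloproteinase of intestinal adenomas, read -0.54, -0.60 and -0.54 without tumors, 1.49, 1.38 and 1.32 with tumors, and 3.07, 3.04 and 3.13 in DMH. The groups formed 3 separate levels, with DMH the highest, and the fall was 3.88-fold (-1.95 ± 0.06, adjusted p = 3.12e-06). Onecut2, a transcription factor, fell 8.9-fold (-3.15 ± 0.12, and -1.82 under normexp correction). In the list median both high calcium groups were below DMH, by 0.88 within slide 1 and by 0.41 within slide 2, as medians that share no array. Under normexp correction 7 of the 13 passed. This list shares Lcn2, Nkd1 and Cd44, among others, with the lists above and below.

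Timp1, an inhibitor of metalloproteinases, had another order. It read -1.26, -1.20 and -1.28 without tumors, 1.10, 0.98 and 0.94 with tumors, and -0.10, -0.18 and -0.17 in DMH, so that DMH lay in the middle (-2.25 ± 0.06, adjusted p = 2.21e-06). Mmp9, a gelatinase of inflammatory cells, fell by 1.40 ± 0.09. Of 15 metalloproteinase and inhibitor genes 7 fell and 1 rose. The falls numbered 4 without replicate 1 with tumors or DMH replicate 3, and 2 under normexp correction.

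**Figure D3:**
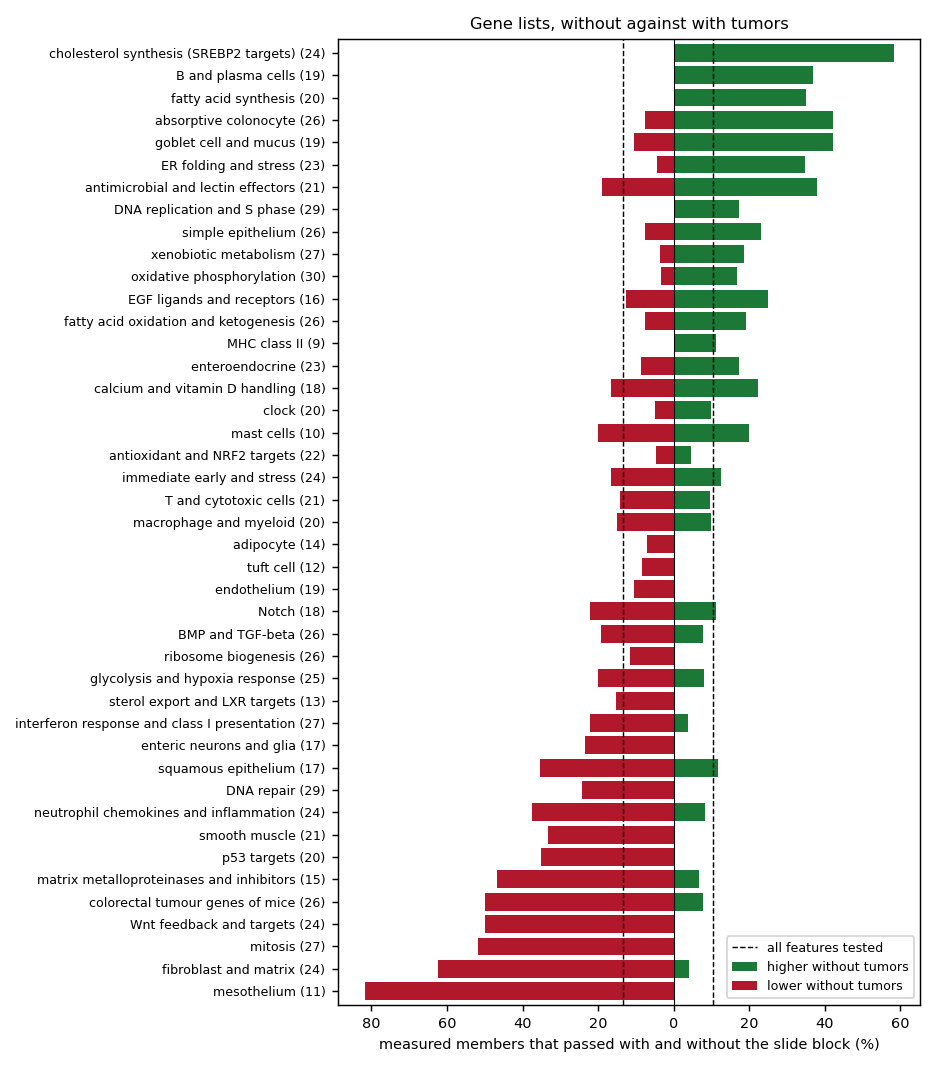
Share of the measured members of each of 43 gene lists (number measured in brackets) that passed with and without the slide block, in green to the right where higher without tumors and in red to the left where lower. Dashed lines mark the shares over all 21094 features, 10.5% higher and 13.3% lower; cholesterol synthesis reaches 58.3% higher and mesothelium 81.8% lower.

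Fibroblast and matrix genes were lower without tumors. Of 24 genes 15 fell and 1 rose (62.5% and 4.17%), with a median of -0.46, or -0.60 with the block. Col1a1, a chain of the main fibrillar collagen, read 3.39, 3.32 and 3.32 without tumors, 4.92, 4.84 and 4.74 with tumors and 4.12, 3.96 and 4.05 in DMH (-1.49 ± 0.06, adjusted p = 1.32e-05). DMH lay between the groups. Col3a1, another fibrillar collagen, fell by 1.12 ± 0.04 and Fn1, fibronectin, by 1.02 ± 0.09. For Fn1 the arrays without tumors did not pass against DMH (0.01, adjusted p = 0.93), and those with tumors were higher by 1.34 within slide 2. The list's median was -0.04 within slide 1 and 0.59 within slide 2. The gene that rose, Wnt5a, a Wnt ligand of stroma, was at least 1.84-fold higher without tumors, being well above background on 0 of the 3 arrays with tumors, but its difference was -0.16 under normexp correction. In that setting 6 members of the list fell.

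Lists for the outer layers of the gut wall moved with this group. Of 11 measured genes of the mesothelium list 9 fell and 0 rose (81.8%). The list includes Krt19, which is also on the simple epithelium list, and C3, Slpi and Cav1, so not every member is particular to mesothelium. Its mean level was -0.45 to -0.32 without tumors, 0.76 to 0.89 with tumors and 0.04 to 0.07 in DMH. Msln, mesothelin, read -0.88, -0.71 and -0.83 without tumors and 1.29, 1.25 and 1.02 with tumors (-1.99 ± 0.11). Upk3b, a marker of mesothelial cells, was at least 4.95-fold lower on the arrays without tumors, where none read it well above background. Its fitted log2 difference shrank to -0.65 under normexp correction (adjusted p = 0.042), below that bound. For such a bound the dim side is floored, array by array, at the faintest signal still well above background, unless the probe itself was brighter. Wt1, a transcription factor of mesothelium, was at least 2.82-fold lower, and its call ended under normexp correction (adjusted p = 0.13). In that setting 2 of the 9 passed. Of 21 smooth muscle genes 7 fell and 0 rose, also 0 without the block, with a median of -0.42 (-0.96 with the block). Their mean level was 3.02 to 3.36 without tumors, 3.45 to 3.76 with tumors and 2.26 to 2.88 in DMH. Tpm2, a tropomyosin of muscle, fell by 0.85, and Actg2, smooth muscle actin of the gut, did not pass without the block (-0.42, adjusted p = 0.0807, and -0.97, adjusted p = 0.0252, with it). The 7 falls became 1 without replicate 3 of the group without tumors, 2 without its replicate 1 or replicate 2 with tumors, 4 without DMH replicate 2 or 3, and 2 under normexp correction. Of 17 genes of enteric neurons and glia 4 fell, among them the neuropeptide genes Cartpt (-1.89) and Vip (-1.02, with replicate 3 with tumors left out as an outlier spot). That count of 4 ran from 2 to 12 with 1 array left out and was 0 under normexp correction. What part these muscle and mesothelium markers had in the differences of the matrix genes was not tested.

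**Figure D4:**
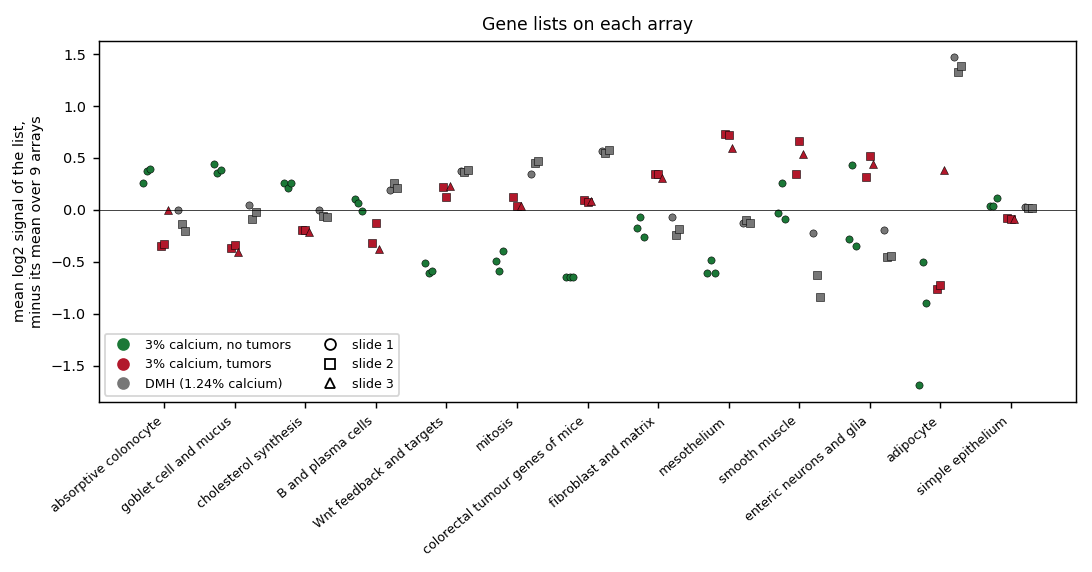
Mean log2 signal of 13 gene lists on each array, minus the mean of the list over the 9 arrays, with the group in colour and the slide as the marker shape. Wnt targets, mitosis and colorectal tumour genes are lowest on the 3 arrays without tumors, fibroblast, mesothelium and smooth muscle lists are highest on the 3 with tumors, and the adipocyte list is spread widely within both high calcium groups.

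Adipocyte genes varied widely between arrays of a group. The mean of 14 markers was -2.18, -0.99 and -1.39 without tumors and -1.25, -1.21 and -0.11 with tumors, so the groups overlap, and it was 0.84 to 0.98 in DMH. Adipoq, the fat hormone adiponectin, did not pass (-1.61, adjusted p = 0.15). Of 17 genes of squamous epithelium, which lines the anal canal rather than the colon, 6 fell and 2 rose (2 and 0 under normexp correction). Krt14, a basal keratin, read -0.57, -0.72 and -0.43 without tumors, 0.89, 0.84 and 0.97 with tumors, and 2.03, 1.91 and 1.88 in DMH (-1.48 ± 0.08). Krt15, another basal keratin, fell by 2.22 ± 0.14.

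Genes of sterol and fatty acid synthesis were higher without tumors. Of 24 cholesterol synthesis genes, which the factor SREBP2 controls together, 14 rose and 0 fell (58.3%), also 0 without the block, with a median of 0.42 (0.43 with the block). Sqle, squalene epoxidase, read 4.08, 4.01 and 4.12 without tumors, 3.22, 3.22 and 3.21 with tumors, and 3.55, 3.51 and 3.53 in DMH (0.86 ± 0.04, adjusted p = 2.13e-05). DMH lay between the groups, which is also where the list median put it, at 0.25 within slide 1 and -0.20 within slide 2. Mvk, mevalonate kinase, rose by 0.88 ± 0.05 and Fdft1, squalene synthase, by 0.84 ± 0.09. Hmgcs1, an early enzyme of the pathway, did not pass with the block (0.38 without, 0.20 with, adjusted p = 0.291), although the mean of its probes was 1.01. The 14 rises became 9 without DMH replicate 3 and 3 under normexp correction. Of 20 fatty acid synthesis genes 7 rose and 0 fell, though 1 fell without the block. The mean level of this list was 1.25 to 1.36 without tumors, 1.01 to 1.23 with tumors and 1.53 to 1.59 in DMH. DMH was thus the highest here, unlike for cholesterol synthesis. Acly, which makes cytosolic acetyl-CoA, rose by 1.16 ± 0.07. These rises numbered 3 without replicate 1 or 3 of the group without tumors, 2 without replicate 1 or 2 with tumors or DMH replicate 3, and 1 under normexp correction. Abcg5, a subunit of a sterol exporter, was above DMH in both groups and 2.39-fold lower without tumors than with.

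**Figure D5:**
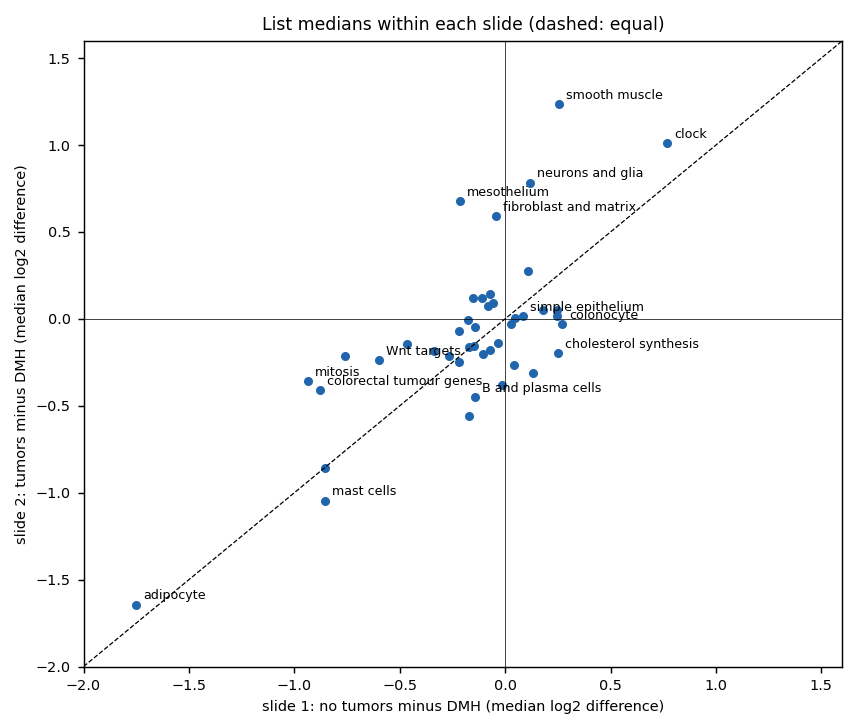
Median log2 difference from DMH of 43 gene lists, with the arrays without tumors against DMH replicate 1 on slide 1 on the horizontal axis and replicates 1 and 2 with tumors against DMH replicates 2 and 3 on slide 2 on the vertical axis. Lists above the dashed line of equality have a higher median on slide 2 than on slide 1. The side of the line need not match the sign of a list's median difference with the block. Fibroblast and matrix lies at -0.04 and 0.59, cholesterol synthesis at 0.25 and -0.20.

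Immune genes moved in several directions. Of 19 B and plasma cell genes 7 rose and 0 fell (36.8%), though 1 fell without the block. Cd79a, of the B cell receptor, read -0.77, -0.86 and -0.97 without tumors, -2.02, -1.92 and -1.93 with tumors and -0.96, -1.10 and -1.11 in DMH, so the arrays with tumors were low (1.09 ± 0.07, adjusted p = 4.73e-05). Xbp1, the secretory cell regulator that this list shares with the one for protein folding in the endoplasmic reticulum, rose by 0.82 ± 0.05. Of that folding list 8 of 23 rose and 1 fell. Under normexp correction 1 member of each of these lists rose. The folding count was also 5 without replicate 1 of the group without tumors, replicate 1 with tumors or DMH replicate 2, 4 without DMH replicate 3 and 3 without replicate 2 with tumors. Of 21 T and cytotoxic cell genes 2 rose and 3 fell (9.52% and 14.3%), close to the shares over all features. The rises were Icos, a costimulatory receptor of T cells, 3.15-fold higher without tumors (1.65 ± 0.10), and Cd3g, of the T cell receptor complex (0.62). The falls were Itgae (-0.42) and the granzymes Gzmc and Gzmb, described below.

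Gzmc, a granzyme of activated cytotoxic cells, was below the background limit throughout the group without tumors. It read -1.55, -1.77 and -1.66 with tumors and -4.91, -4.21 and -4.51 in DMH, and was at least 14.5-fold lower without tumors (adjusted p = 3.88e-05). Its fitted difference shrank to -1.54 under normexp correction, below that bound. Gzmb, a related granzyme, fell by 1.46. Of 24 genes of neutrophil attraction and inflammation 9 fell and 2 rose (37.5% and 8.33%). Cxcl5, a neutrophil chemokine, read -4.66, -4.39 and -4.77 without tumors and -3.24, -3.26 and -2.82 with tumors, far below 0.88, 0.88 and 1.04 in DMH (-1.50 ± 0.15). Il33, an alarm cytokine of epithelium and stroma, fell by 1.14 ± 0.07. Ptgs2, inducible cyclooxygenase, did not pass between the groups (-0.11, adjusted p = 0.55), and its probes disagreed in sign. Under normexp correction 0 of these 24 genes fell by the combined call, with Cxcl5 at -0.59 without the block (adjusted p = 0.013). Of 27 interferon response genes 6 fell and 1 rose, among them Ifi44 (-1.43), with 3 falls without replicate 1 or 2 with tumors and 2 under normexp correction. The mast cell proteases Mcpt2 and Mcpt1 rose by 1.34 and 0.70, while Cma1, a chymase of connective tissue mast cells, fell by 0.73. Of that list of 10 genes 2 rose and 2 fell, and under normexp correction 0 and 1.

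In the calcium and vitamin D list of 18 genes 4 rose and 3 fell (22.2% and 16.7%), with a median of 0.04, between groups whose diets held the same share of calcium. Trpv6, the epithelial calcium channel, read -2.83, -2.97 and -2.72 without tumors, -1.0, -1.09 and -1.27 with tumors, and -0.16, -0.07 and -0.27 in DMH. The groups formed 3 levels, and the fall was 3.29-fold (-1.72 ± 0.10, adjusted p = 2.96e-05, and -1.03 under normexp correction). S100g, the calcium carrier calbindin-D9k, fell by 0.59 ± 0.09, again with DMH the highest. Trpm6, a magnesium channel, rose by 0.83 ± 0.16. Under normexp correction 0 of the list passed in either direction by the combined call. Clock genes stood above DMH in both groups, with list medians of 0.77 and 1.01, and between the groups 2 of 20 rose and 1 fell. Per2, a clock repressor, did not pass with the block (0.33 without, 0.28 with, adjusted p = 0.33), and Dbp, a clock output, passed neither way (-0.31, adjusted p = 0.165 without, and -0.79, adjusted p = 0.0552 with).

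Among p53 targets 7 of 20 fell and 0 rose, also 0 without the block. Ddit4, a brake on growth signalling, fell by 1.03 ± 0.09 and Plk2, a stress kinase, by 0.88 ± 0.11. Probes of Mdm2 and of Trp53inp1 disagreed in sign. The falls numbered 4 without replicate 1 of the group without tumors, replicate 2 with tumors or DMH replicate 2 or 3, 3 without replicate 1 with tumors and 2 under normexp correction. Bmp2, a ligand that favours differentiation at the crypt top, rose by 1.27 ± 0.06, and Bmp7, another ligand, fell by 0.86 ± 0.10.

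Several of the largest differences lay outside any list. Gdpd3, an enzyme of lysophospholipid metabolism, read 2.96, 2.78 and 2.74 without tumors, -3.33, -0.73 and -2.61 with tumors, and -3.77, -3.91 and -4.03 in DMH. It was high only on the arrays without tumors, 33.2-fold (5.05 ± 0.58, adjusted p = 0.000434), and was at 5.80 without replicate 2 with tumors. Dera, deoxyribose-phosphate aldolase, read -5.73, -6.61 and -5.87 without tumors, -0.76, -0.72 and -0.80 with tumors and -2.17, -1.50 and -1.47 in DMH. It was well above background on only 1 array without tumors, and its difference of -5.31 ± 0.27 became -4.65 with the block and -2.19 under normexp correction. Pnliprp1, a pancreatic lipase relative, was 11.7-fold lower (-3.55 ± 0.11) and Spock2, a proteoglycan, 7.84-fold (-2.97 ± 0.07, and -1.69 for the mean of its probes). The cytochromes Cyp2b9 and Cyp2b10 also passed as lower, but each was well above background on only 1 array without tumors, so no fold is given. Their log2 differences were -1.13 and -0.61 under normexp correction, the latter with its call ended (adjusted p = 0.05). Trappc10, of a vesicle tethering complex, and Pank3, of coenzyme A synthesis, were 6.48-fold and 5.94-fold higher, and at 1.15 and 0.87 in log2 under normexp correction.

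Some large differences shrank or turned once the slide was a block. Pex14, a peroxisomal import protein, read -5.83, -6.00 and -5.54 without tumors, -2.13, -2.05 and -2.45 with tumors, but -5.26 in DMH on slide 1 and -2.47 and -2.44 in DMH on slide 2. The DMH arrays thus split as the slides did, and the difference of -3.58 shrank to -0.90 with the block. Gars, a tRNA ligase, read -2.56, -2.56 and -2.42 without tumors and -1.09, -1.16 and -1.20 with tumors. Its DMH array on slide 1 was at -2.35 and those on slide 2 at -0.48 and -0.45, and the difference of -1.37 turned to 0.50 with the block. In all, 16 features passed in both fits with opposite signs (0.0759%).

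Each group was also set against the DMH arrays of its own slide. The slide 1 contrast has 1 DMH array and the slide 2 contrast 2, so their counts differ in precision and are not compared. Within slide 1 the arrays without tumors had 14.1% of features higher and 12.6% lower than the 1 DMH array there. Within slide 2 the arrays with tumors had 23.9% higher and 18.6% lower than 2 DMH arrays. Under normexp correction the totals fell from 5636 to 1041 and from 8965 to 2465, and the second was 5169 without replicate 2 with tumors, 5979 without replicate 1. Of the 2205 features higher without tumors, 849 (38.5%) were lower than DMH with tumors and did not pass against it without, as for Ang4 and Itln1. A further 646 (29.3%) were higher than DMH without tumors only, as for Atp12a, and 461 (20.9%) passed on both sides in opposite directions, as for Aqp4 and Car4. Of the 2807 lower, 1419 (50.6%) were higher than DMH with tumors only, as for Fn1 and Scnn1g, and 680 (24.2%) were lower than DMH without tumors only, as for Plk1. Another 321 (11.4%) passed on both sides in opposite directions, as for Timp1, Lgr5 and Col1a1. Since the call with the block is the difference of these 2 contrasts, the shares describe which contrasts passed and test nothing further, and not passing does not show that a group equalled DMH.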

How the data were processed

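Per the file headers and the submitters' processing notes, the authors' scanner files come from Agilent Feature Extraction 10.5.1.1 and hold 1-colour processed signal intensity, already background-subtracted, with median spot and background intensities and flags. The deposited whole-series table holds log2 values that follow the log2 processed signal apart from a shift of each array (r at least 0.999994). This r does not show that the shift is the array median. The choice of its 23726 probes stays unknown, and the table served as an alternative.

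From the intensities, log2 of the processed signal minus the 75th percentile of each array over non-control probes was taken. Outlier spots were left out and no spot was saturated (0). Of 41174 probes 27207 were kept, those read well above background by every array of some group. Names came from transcript accessions through a RefSeq table of GRCm38.p6, as did promoters: 25097 probes had 1 symbol and 16077 had none here. A gene was represented by its brightest kept probe. limma 3.58.1 in R 4.3.3 (lmFit, eBayes, 9 arrays, Benjamini-Hochberg at 0.05 over 21094 features) was run both ways, with and without a slide block, and was tested on simulated data. The number of arrays limits the precision.

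The groups, the 43 lists and the tests were chosen with earlier results of these data known, and the motifs after the lists' values were seen. The rule for named genes takes the 12 largest rises and falls that passed without overlap, the 5 largest each way with only a bound, up to 5 that passed per list, those that turned sign with the block, and a panel of 28. It gave 219 genes, of which some are printed, and some items are not reported here. Alternatives were another background correction (normexp, offset 50, on the median spot signal), quantile normalization, the whole-series table, other filters and probe rules, other fits and thresholds, the replicate number as a block, and each array left out.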

Additional observations from a re-analysis of the deposited data

How the results depend on the processing

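The 10028 features that differed without the block became 6320 with the slide as a fixed block, 6292 under normexp correction, 4783 on the whole-series table, 1589 at adjusted p under 0.05 with 2-fold and 1695 at unadjusted p with 2-fold, and 8272 to 12265 with 1 array left out. The 5012 that passed with and without the block became 544 under normexp correction, 2043 with no filter on dim probes, 7537 with every probe tested by itself, 772 and 876 with 2-fold asked of both fits (adjusted and unadjusted p), and 2608 to 5585 with 1 array left out. Without DMH replicate 1 no value with the block exists, since slide 1 then holds no DMH array. Within slide 1 the count ran from 4310 to 5637 and within slide 2 from 5169 to 9594 with 1 array left out, and under normexp correction they were 1041 and 2465. The share higher, 43.3% without the block, was 53.3% without replicate 3 with tumors. In the combined call it was 44.0%, and 56.4% under normexp correction, 55.7% with every probe by itself, and 56.2% and 57.4% with 2-fold (adjusted and unadjusted p).

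Deviations of same-numbered arrays of different groups correlated at r from -0.57 to 0.22, over 0.1 in 2 of 9 pairs. Other-numbered pairs ran from -0.46 to 0.57. Most same-numbered pairs lay on different slides, so these values cannot show whether the numbers pair the samples. With the replicate block and the slide block 810 features passed (68.5% higher), and 618 in the combined call with the replicate block (64.6% higher). In that combined call the 14 cholesterol synthesis rises and the 14 mitosis falls each became 1. The 7 falls of p53 targets and of DNA repair genes became 0, as did the 7 B and plasma cell rises and the 8 folding rises. The Wnt list held 9 falls, the absorptive list 5 rises and the fibroblast list 4 falls.

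Signs reversed for Gars (0.50 with the slide block, 0.43 with the replicate and slide blocks), Trp53inp1 (0.087) and Vegfa (0.061) with the mean of the probes, and Wnt5a (-0.16) under normexp correction. List medians reversed for BMP and TGF-beta (0.086, mean of the probes) and, with the replicate and slide blocks, for antioxidant genes (-0.10), fatty acid oxidation (-0.11) and simple epithelium (-0.0026). The cause was not tested. Of 219 genes 54 kept their direction and their side of the threshold in all alternatives. The replicate and slide blocks together ended the most calls, those of 150 genes with the direction kept, and left 65 genes the same. Normexp correction ended the calls of 28 with the direction kept, and of Wnt5a, which reversed. Signal over background limits the dim genes: 61.1 to 73.8% of probes were well above it on an array.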

Other observations

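Other lists are set against the background shares of 10.5% higher and 13.3% lower. Of 30 oxidative phosphorylation genes 5 rose and 1 fell, and of 26 ribosome biogenesis genes 3 fell and 0 rose (5 and 5 without the block), with 0 of any of these passing under normexp correction. Of 20 macrophage and myeloid genes 2 rose and 3 fell. Of 29 DNA repair genes 7 fell and 0 rose (9 and 4 without the block). The 7 were 3 without replicate 1 of either high calcium group or replicate 2 with tumors, 4 without DMH replicate 3, and 0 under normexp correction. Ogg1, which removes oxidised guanine, fell by 2.40 without the block and by 1.24 with it, and its DMH arrays stood at -1.83 on slide 1 and at -0.73 and -0.70 on slide 2.

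In the list of EGF ligands and receptors 4 of 16 genes rose and 2 fell, with 0 either way under normexp correction, and 3 of the rises were ligands. Areg, amphiregulin, rose by 0.55 ± 0.11, Ereg, epiregulin, by 0.84 ± 0.13 and Nrg1, neuregulin 1, by 1.19 ± 0.15, though the Nrg1 call ended under normexp correction (0.23, adjusted p = 0.43). Of 27 genes of xenobiotic metabolism 5 rose and 1 fell, with 3 rises without replicate 2 with tumors and 2 under normexp correction. Sult1a1, a sulfotransferase, and Ugt2b34, a glucuronosyltransferase, both enzymes of xenobiotic conjugation, were 2.17-fold and 2-fold higher. Ptx3, a pentraxin of inflamed stroma, and Cthrc1, a collagen triple helix protein of fibroblasts, stood above the background limit only with tumors, in 3 of 3 arrays, and were at least 4.37-fold and 4.16-fold lower without tumors than with. Both calls ended under normexp correction (adjusted p = 0.068 and 0.23).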
